A study of Mus musculus with 15 samples.

Results

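RNA of whole kidneys was compared between Tert+/+ mice given folic acid and Tert+/+ mice given vehicle. Of the 15 libraries of the study, 7 belong to these groups by their treatment label: 3 folic acid libraries and 4 vehicle libraries. Of the 19602 genes in the table, 14651 were tested, those that reached 10 normalised counts in 3 or more of the 15 libraries. The folic acid mice carried both intact copies of Tert, the gene of the telomerase catalytic subunit, and received 1 intraperitoneal injection at 125 mg per kg body weight. The vehicle mice had the same genotype and received 200 µl of 0.3 M sodium bicarbonate instead. Mice of all groups were 6 to 8 weeks old, and kidneys were perfused with cold saline and taken at day 14. A second vehicle group of 4 libraries, third-generation telomerase-deficient mice (G3 Tert-/-) given bicarbonate, is used below as a further set of controls, and differs from the folic acid group in genotype as well as in treatment. The sources used here name no strain. The labels do not say that each library came from a separate animal, so p-values measure the spread between these libraries, part of which may be technical.

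Folic acid is a vitamin, and a large injected dose precipitates in the tubules of the mouse kidney and injures the proximal tubule, the segment that reabsorbs most of the filtered solute. In that model the early loss of transporters and the appearance of injury proteins such as kidney injury molecule 1 (Havcr1) is followed by macrophage entry and by deposition of collagen between the tubules. The mouse kidney is also one of the organs that differ most between the sexes: androgens turn on a large set of transporter and cytochrome P450 genes in the male proximal tubule, and the female tubule expresses a smaller set of its own. The comparison addresses what a low dose leaves in the kidney after recovery time when telomerase is intact.

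Library depth was even, from 5518452 to 6609307 reads in the 7 libraries, and 1 read was worth 0.948 to 1.13 normalised counts. Kidney identity was clear in every one: the proximal tubule protein Kap had 99569, 77662 and 84710 normalised counts in the 3 folic acid libraries, against 183230, 102530, 166990 and 183640 in the 4 vehicle libraries. A pair of features set libraries apart before any gene was tested. The first is sex-linked RNA. Xist, the RNA of the inactive X chromosome of female cells, had 3147, 3790.3 and 3761 normalised counts in the folic acid libraries, against 42.98, 3026, 42.2 and 84.9 in the vehicle libraries. Summed over Eif2s3y, Uty, Ddx3y and Kdm5d, Y-linked RNA came to 29.5, 14.4 and 9.53 in the folic acid libraries, against 855, 283, 816 and 867 in the vehicle libraries. All folic acid libraries were thus high in Xist and low in Y-linked RNA, vehicle 1, 3 and 4 were the reverse, and vehicle 2 held both at once. The labels call folic acid 1 female, folic acid 2 and 3 male and all 4 vehicle mice female, so the RNA goes against the labelled sex in most of these libraries. Sex-linked RNA and treatment cannot be told apart in this comparison. For this reason the counts of called genes are set beside a fit with the Y-linked sum as a covariate. This covariate, the Y share, is each library's sum divided by the highest of all libraries. The counts are also set beside the G3 Tert-/- vehicle libraries, whose Xist was 3741, 5217, 3524 and 3939 and whose Y-linked sum was at most 7.57. Only some single genes and lists are set beside either of these. Where neither is given, whether a change held beside them is not stated.

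**Figure D1:**
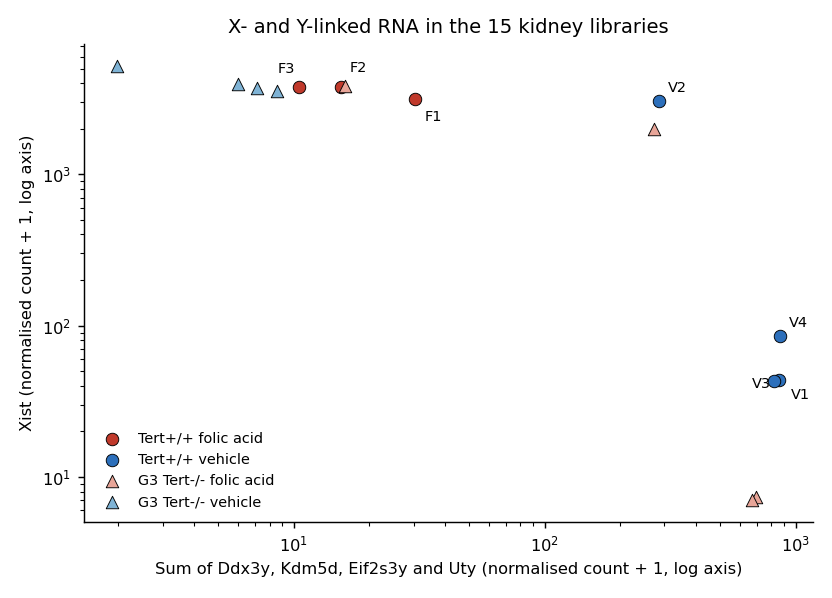
Xist against the sum of 4 Y-linked genes, both as normalised count + 1 on log axes, 1 point per library, for all 15 libraries; F1 to F3 are Tert+/+ folic acid and V1 to V4 Tert+/+ vehicle. The folic acid libraries sit at the upper left with the G3 Tert-/- vehicle libraries, V1, V3 and V4 at the lower right, and V2 is high on both axes.

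The second is folic acid 1. Gm42418, a predicted gene that overlaps ribosomal RNA, took 23.0 percent of its normalised counts, against 7.94 and 7.57 percent in folic acid 2 and 3 and 5.41 to 8.15 percent in the vehicle libraries. Among 11631 genes with a mean of at least 20 normalised counts in the 7 libraries, folic acid 1 was over 2-fold above both other folic acid libraries in 485 and below 1/2 of both in 386, while folic acid 2 was so in 8 and 29 genes and folic acid 3 in 5 and 28. Folic acid 2 and 3 differed from each other by a mean chi-square of 3.01 per gene, more than counting noise alone gives. It was 68.4 and 72.6 between either of them and folic acid 1. Pairs of Tert+/+ vehicle libraries lay at 7.25 to 30.8, and G3 Tert-/- vehicle 3 and 4 at 2.88. The chi-square was taken on reads, so genes with many reads, Gm42418 among them, weigh heavily in this mean. RNA quality scores averaged 6.3 (4.7 to 8.0) over the study, per the labels' protocols, and are not given by library, so the part of RNA quality in folic acid 1 was not tested.

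Comparing folic acid with vehicle, 741 of 14651 genes (5.06 percent) passed a limma adjusted p of 0.05: 318 rose (2.17 percent) and 423 fell (2.89 percent). Fold changes are differences of log2(normalised count + 1). The median size of a called change was 0.97 on the log2 scale, 355 of the called genes changed over 2-fold, and the median over all genes tested was 0.01. All 741 kept their direction without folic acid 1, but 125 were still called. With the Y share in the fit 708 kept their direction and 1 gene of the table (0.00683 percent), Pzp, was called. That term did not bring the sex-linked genes to no change: with it the median of the 4 Y-linked genes was -1.66, and Xist went from 4.58 to -4.21. Changes with the Y share may thus still hold sex-linked difference. The change with the Y share was in the same direction and at least as large in 72 of the 741 genes, and at least 1/2 as large in 366, while its median SE was 0.31, against 0.23 without that term. Against the G3 Tert-/- vehicle libraries, which resemble the folic acid libraries in Xist and Y-linked RNA, the same 3 folic acid libraries gave 22 called genes (0.15 percent), 18 higher and 4 lower. Of all genes tested, 2913 (19.9 percent) had every folic acid library outside the range of the Tert+/+ vehicle libraries, and 867 (5.92 percent, 3.58 percent higher and 2.33 percent lower) outside that of all 8 vehicle libraries. Among the 741 called genes 277 lay outside all 8. The counts rested on single libraries: 39 higher and 94 lower genes were called without folic acid 1, 155 and 216 without folic acid 2, 104 and 153 without folic acid 3, 49 and 85 without vehicle 1, 589 and 720 without vehicle 2, 71 and 121 without vehicle 3, and 35 and 64 without vehicle 4.

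Many of the largest changes were in genes known to differ between male and female mouse kidney. Of a list of 13 male-enriched kidney genes, 11 fell and none rose, where 2.89 percent of all genes tested fell and 2.17 percent rose. The median log2 change of the 13 was -4.38, against 0.01 over all genes tested. The 3 female-enriched genes on the list all rose, with a median of 3.92, but on the recovered reads edgeR called none of the 3 (limma gave 3 at an unadjusted p under 0.05), and DESeq2 called neither Slc7a12 nor Cyp4a14 and gave no adjusted p for Prlr. The 24 genes with the largest changes of those called (12 in each direction) included 7 of the male and 3 of the female list. In 23 of the 24 the groups did not overlap, Mpped1 being the exception, against 19.9 percent of all genes tested. The choice of called genes with large changes favours such separation. Against the G3 Tert-/- vehicle libraries the male list had a median of 0.24 and the female list one of 0.12, and with the Y share -1.12 and -0.62.

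Slco1a1, an organic anion transporter, had 44.2, 5.76 and 8.58 normalised counts in the folic acid libraries, against 1524, 695, 1782 and 2005 in the vehicle libraries. It fell by 6.61 on the log2 scale (SE 1.28, limma adjusted p = 0.0132). The G3 Tert-/- vehicle libraries had 4.07, 1.95, 5.41 and 12.03, a range that held folic acid 2 and 3, with folic acid 1 above it. Acsm3, a mitochondrial enzyme that activates medium-chain fatty acids, had 63.5, 15.4 and 13.3 in the folic acid libraries, against 2742, 897, 2546 and 2506 in the vehicle libraries (-6.33, SE 1.21, limma adjusted p = 0.0131). Slc7a13, an amino acid transporter of the straight proximal tubule, had 113, 18.2 and 28.6 in folic acid, against 4484, 999, 4475 and 4324 in vehicle (-6.25, SE 1.25, limma adjusted p = 0.0148). In each of the 3 genes vehicle 2 was the lowest vehicle library and folic acid 1 the highest folic acid library, and the groups did not overlap. Cyp7b1, an oxysterol hydroxylase, had 19.3, 7.68 and 6.67 in folic acid, against 601, 59.7, 646 and 526 in vehicle, and vehicle 2 stood nearer to folic acid 1 than to the other vehicle libraries on a log scale. The steroid and fatty acid hydroxylases Cyp2j13, Cyp4a12a and Cyp4b1, the glucuronosyltransferases Ugt2b37 and Ugt2b38 and the ethanol-inducible Cyp2e1 had log2 changes from -5.499 to -3.48. Odc1, the first enzyme of polyamine synthesis and a classical androgen target in mouse kidney, had 395, 593 and 607 in folic acid, against 2342, 1728, 2489.7 and 3357 in vehicle (-2.21, limma adjusted p = 0.00811). Kap, the androgen-regulated protein that gave the most abundant of these RNAs, did not pass (-0.84, limma adjusted p = 0.169). The Cyp4a, Cyp2j and Ugt2b families have close copies, and reads may be split among them.

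In the opposite direction, Slc7a12, an amino acid transporter of female mouse kidney, had 811, 494 and 594 normalised counts in the folic acid libraries, against 7.92, 293, 3.84 and 20.98 in the vehicle libraries (4.76, SE 1.07, limma adjusted p = 0.0228). Prlr, the prolactin receptor, had 1959, 2513 and 2491 in folic acid, against 49.8, 1597, 62.4 and 104 in vehicle (3.92, SE 0.98, limma adjusted p = 0.0322). Vehicle 2 alone among the vehicle libraries had a level near that of folic acid in both genes, and the groups did not overlap. Cyp4a14, a fatty acid hydroxylase, Cbr1, a carbonyl reductase, and Rdh16f2, a retinol dehydrogenase, also had vehicle 2 as the highest vehicle library, and rose by 2.51 to 2.96. With the Y share as a covariate, the log2 change of Prlr was -0.62 and that of Slc7a12 0.02.

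**Figure D2:**
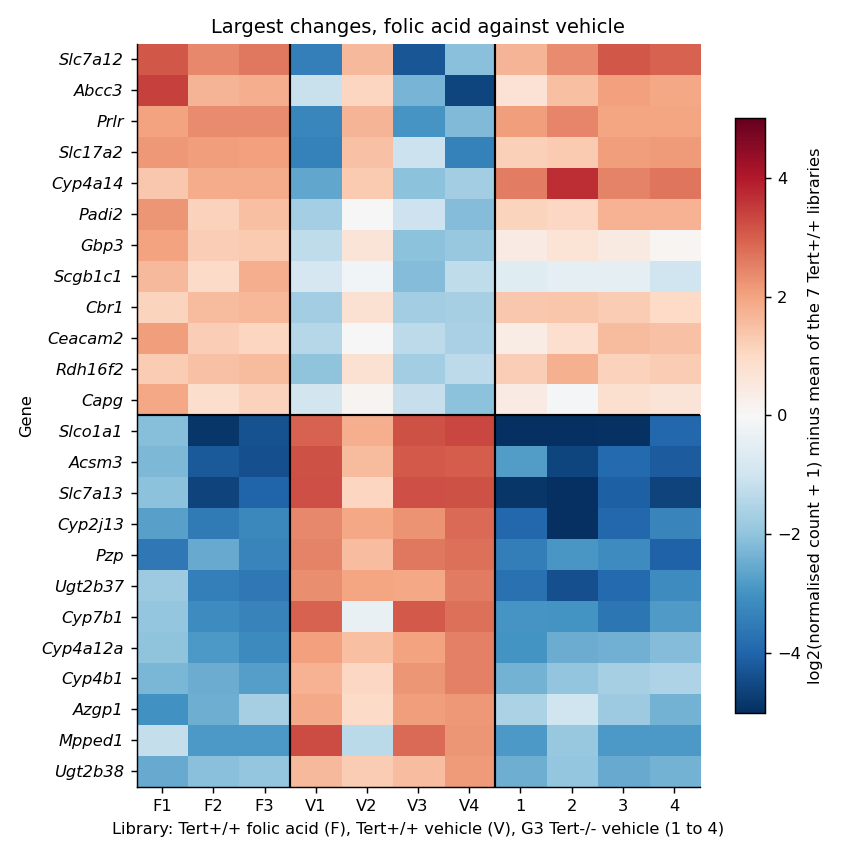
The 12 genes that rose most (top) and the 12 that fell most (bottom) among called genes with a mean of at least 20 normalised counts, as log2(normalised count + 1) minus the mean of the 7 Tert+/+ libraries; colours stop at -5 and 5. V2 lies between F1 to F3 and the other vehicle libraries in most rows, and the G3 Tert-/- vehicle libraries look like F1 to F3 in most rows, Gbp3, Scgb1c1 and Capg being lower in them.

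Outside the 2 sex lists, the genes that rose most included transporters and secreted or adhesion proteins. Abcc3, an export pump for organic anions, had 261, 78.7 and 85.8 in folic acid, against 10.2, 50.2, 3.84 and 0 in vehicle (4.07, SE 0.98, limma adjusted p = 0.0289). Ceacam2, a cell adhesion protein, had 678, 371 and 336 in folic acid, against 58.8, 159, 64.3 and 50.95 in vehicle (2.54, SE 0.49, limma adjusted p = 0.0132). Padi2, which turns arginine of proteins into citrulline, had 81.7, 39.4 and 50.5 in folic acid, against 4.52, 17.1, 7.68 and 2.997 in vehicle (2.86, SE 0.49, limma adjusted p = 0.00895). The Tert+/+ groups were separate in all 3 genes, but the G3 Tert-/- vehicle libraries reached 99.5 in Abcc3, 481 in Ceacam2 and 59.5 in Padi2, within the folic acid range. Scgb1c1, a secretoglobin, had 65.8, 41.3 and 75.3 in folic acid, against 11.3, 18.96, 3.84 and 7.99 in Tert+/+ vehicle and 13.2, 14.7, 15.1 and 10.02 in G3 Tert-/- vehicle (2.56, SE 0.55, limma adjusted p = 0.0184). Capg, which caps the ends of actin filaments, had 568, 275 and 325 in folic acid, against 78.03, 163, 65.2 and 34.97 in Tert+/+ vehicle and 195, 141, 261 and 231 in G3 Tert-/- vehicle (2.32, SE 0.45, limma adjusted p = 0.0132). In these 2 genes every folic acid library was above all 8 vehicle libraries. Without folic acid 1 the limma adjusted p was 0.0667 for Scgb1c1, 0.0587 for Capg, 0.123 for Abcc3, 0.0587 for Ceacam2 and 0.0366 for Padi2.

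Pzp, a protease inhibitor of the alpha-2-macroglobulin family at chr6:128483567-128526720 (GRCm38, minus strand), was the gene called with the Y share as well. It had 4.54, 10.6 and 5.72 normalised counts in the folic acid libraries, against 364, 193, 414 and 444 in the vehicle libraries. The log2 change was -5.49 (SE 0.50, limma adjusted p = 5.93e-05), -5.26 without folic acid 1 (adjusted p = 0.000752, limma) and -3.56 with the Y share (adjusted p = 0.0347, limma). As the median of the Y-linked genes also stayed negative with that term, the -3.56 may still hold sex-linked difference. The G3 Tert-/- vehicle libraries, untreated with folic acid, had 5.08, 7.82, 6.49 and 3.01, and against them the change was 0.25 (limma adjusted p = 0.831). The low level was therefore shared by the 3 folic acid libraries and the 4 G3 Tert-/- vehicle libraries, and the groups overlapped. Azgp1, a zinc-binding glycoprotein that is secreted, had the next smallest p among the named genes: 7.94, 12.5 and 21.9 in folic acid, against 266, 139, 311 and 327 in vehicle (-4.15, SE 0.46, limma adjusted p = 0.000509), with 23.4, 35.2, 19.5 and 13.03 in the G3 Tert-/- vehicle libraries.

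The androgen and glucocorticoid receptors bind DNA as dimers on paired half-sites, AGAACA on 1 strand and TGTTCT on the other. Promoters from 250 bases before to 50 after the start site (RefSeq, GRCm38.p6) were searched on both strands for either form, which is a single 6-base word and its reverse complement. Of 12 genes looked up, Pzp and 11 of the male list that fell, 9 had a promoter in the table, 11 promoters in all. Pzp and Cyp4b1 held the half-site once each, 2 of these 11 promoters, and 19 percent of all 32851 promoters of that length held it. The full palindrome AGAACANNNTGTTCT was in 3 of all promoters and in none of these. The sequences of both are shown because these are the promoters of strongly lowered genes that hold the word, which is in capitals, at chr6:128526671-128526970 for Pzp and chr4:115647672-115647971 for Cyp4b1, both on the minus strand.
Pzp: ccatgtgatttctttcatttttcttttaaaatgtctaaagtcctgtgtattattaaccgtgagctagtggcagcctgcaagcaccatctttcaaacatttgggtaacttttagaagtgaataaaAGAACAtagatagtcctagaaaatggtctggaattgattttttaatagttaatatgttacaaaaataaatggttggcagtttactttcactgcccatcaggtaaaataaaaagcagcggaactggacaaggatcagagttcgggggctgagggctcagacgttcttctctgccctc
Cyp4b1: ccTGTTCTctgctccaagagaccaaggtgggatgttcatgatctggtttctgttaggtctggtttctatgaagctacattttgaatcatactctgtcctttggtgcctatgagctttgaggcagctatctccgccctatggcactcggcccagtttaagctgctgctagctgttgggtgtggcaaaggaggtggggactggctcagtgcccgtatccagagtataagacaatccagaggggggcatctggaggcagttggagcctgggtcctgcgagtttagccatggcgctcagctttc
Counted from the start site, the word begins at -126 in Pzp and at -248 in Cyp4b1. A match is a description of these letters and not a binding site.

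A total of 15 genes were called against the Tert+/+ vehicle libraries and, in the same direction, against the G3 Tert-/- vehicle libraries: 11 higher and 4 lower. They were picked after their values were seen, and both comparisons use the same 3 folic acid libraries. In 14 of the 15 every folic acid library lay outside all 8 vehicle libraries, Prss23 being the exception, against 5.92 percent of all genes tested. A call against both groups favours such separation, so it is no further evidence for these genes. Of the 15, 10 are annotated as protein coding. All 15 kept their direction with the Y share. The change was then at least as large in 6 (mt-Nd3, mt-Tp, Brip1os, Tmem42, Ints11 and F2rl1) and at least 1/2 as large in 14, Prss23 being the exception, but the SE was larger in all 15 and limma adjusted p was 0.311 or more. Of the 15, 5 were called without folic acid 1 (Nqo1, Nubp2, Brip1os, Snord89 and mt-Nd3).

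Nqo1, a quinone reductase induced through the transcription factor NRF2, had 58.99, 43.2 and 40.99 normalised counts in the folic acid libraries, against 119.9, 72.04, 143 and 188 in Tert+/+ vehicle and 97.6, 163, 122 and 134 in G3 Tert-/- vehicle. It fell by 1.37 on the log2 scale (SE 0.26, limma adjusted p = 0.0131), and against the G3 Tert-/- vehicle libraries the change was -1.41 (limma adjusted p = 0.0413). All 3 folic acid libraries were below every vehicle library. Of 19 tested genes of the NRF2, glutathione and iron list, Nqo1 was called lower and the glutathione transferases Gsta2 and Gsta4 higher, against 2.89 and 2.17 percent of all genes tested, and the list median was -0.07. Gpx1 (a glutathione peroxidase), Fth1 (ferritin heavy chain) and Tfrc (the transferrin receptor) also had every folic acid library below every Tert+/+ vehicle library, with log2 changes of -0.70, -0.57 and -0.62 that did not pass the test (limma adjusted p = 0.148, 0.152 and 0.23), and these 3 were picked after their values were seen. Such separation on the lower side was found in 4 of the 19 genes, against 10.6 percent of all genes tested. Gsta4 had 236, 544 and 588 in folic acid, against 63.3, 238, 74.8 and 69.9 in vehicle, with vehicle 2 nearest to folic acid, and its change with the Y share was -0.25. Hmox1, heme oxygenase, which NRF2 also induces, had 130.5, 245 and 266 in folic acid, against 61.1, 147, 51.8 and 85.9 in vehicle (1.35, limma adjusted p = 0.23), and the groups overlapped.

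Nubp2, a scaffold protein for cytosolic iron-sulfur cluster assembly, had 88.5, 82.5 and 78.2 in folic acid, against 153, 133, 145 and 149.8 in Tert+/+ vehicle and 114, 148, 150.4 and 146 in G3 Tert-/- vehicle (-0.80, SE 0.14, limma adjusted p = 0.00906). Ints11, the catalytic subunit of the Integrator complex that cleaves nascent RNA, had 17.02, 24.95 and 24.8 in folic acid, against 40.7, 39.8, 34.5 and 44.96 in Tert+/+ vehicle and 56.95, 42.01, 51.9 and 55.1 in G3 Tert-/- vehicle (-0.83, limma adjusted p = 0.0277). Tmem161b, a membrane protein, fell by 0.59 (limma adjusted p = 0.0224). In each of these genes every folic acid library was lower than all 8 vehicle libraries.

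Of the genes that rose, F2rl1, the protease-activated receptor PAR2 of tubule cells, had 238, 113 and 132 in folic acid, against 55.4, 91.00, 71.96 and 49.95 in Tert+/+ vehicle and 51.9, 33.2, 42.2 and 53.1 in G3 Tert-/- vehicle (1.21, SE 0.28, limma adjusted p = 0.0246). Without folic acid 1, the highest library, its change was 0.89 (limma adjusted p = 0.119). Kat7, a histone acetyltransferase, had 395, 297 and 326 in folic acid, against 214, 229, 187 and 195 in Tert+/+ vehicle and 225, 159, 203 and 169 in G3 Tert-/- vehicle (0.71, limma adjusted p = 0.0211). The RAS-related GTPase Rit1, the secreted protease Prss23 and the membrane protein Tmem42 rose by 0.62 to 0.76. Brip1os, an antisense RNA beside the helicase gene Brip1, had 593, 531 and 589 in folic acid, against 336, 359, 314 and 321 in Tert+/+ vehicle and 312, 255, 280.2 and 297 in G3 Tert-/- vehicle (0.78, SE 0.13, limma adjusted p = 0.00811). Its groups were separate and each was tight. The labels' protocols name a stranded kit with the matching strand setting for counting, which keeps reads of an antisense RNA apart from those of its partner.

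Short RNAs and mitochondrial RNAs were among the 15. Snord89, a small nucleolar RNA at chr1:39548745-39548854, had 3639, 2496 and 2407 in folic acid, against 771, 1352, 470.1 and 704 in Tert+/+ vehicle and 975, 573, 736 and 698 in G3 Tert-/- vehicle (1.87, SE 0.30, limma adjusted p = 0.00811). The mitochondrial proline transfer RNA mt-Tp had 251, 225 and 280.2 in folic acid, against 88.2, 76.8, 66.2 and 83.9 in Tert+/+ vehicle and 77.3, 46.9, 88.7 and 56.1 in G3 Tert-/- vehicle (1.67, SE 0.35, limma adjusted p = 0.0165). The mitochondrial mRNA mt-Nd3, a subunit of respiratory complex I, had 6028, 6881 and 8633 in folic acid, against 3656, 2749, 4432 and 4703 in Tert+/+ vehicle and 3599, 3534, 3560.5 and 3744 in G3 Tert-/- vehicle (0.90, SE 0.18, limma adjusted p = 0.0132). In all 3 RNAs the lowest folic acid library was above the highest vehicle library. The kit primes on poly(A), so reads at such RNAs depend on tails or on A-rich stretches. Of the 13 protein-coding genes of the mitochondrial genome, mt-Nd3 rose and mt-Nd6 fell, where 2.17 percent of all genes tested rose and 2.89 percent fell. mt-Nd6 had 32.9, 43.2 and 28.6 in folic acid, against 59.9, 60.7, 65.2 and 58.9 in Tert+/+ vehicle. The G3 Tert-/- vehicle libraries had 38.6, 36.1, 42.2 and 24.1, overlapping folic acid, and the change against them was -0.006. The list median was -0.36, but 0.03 against the G3 Tert-/- vehicle libraries and 0.14 with the Y share.

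The other members of the 15, AA474408 and Gm24047, are predicted models. AA474408 had 279, 87.3 and 116 in folic acid, against 45.2, 75.8, 34.5 and 40.96 in Tert+/+ vehicle and 36.6, 25.4, 29.2 and 36.1 in G3 Tert-/- vehicle, and Gm24047, a predicted microRNA gene inside Senp7, had 44.2, 53.7 and 54.3 in folic acid, against 15.8, 23.7, 8.63 and 13.99 in Tert+/+ vehicle and 14.2, 6.84, 6.49 and 10.02 in G3 Tert-/- vehicle. Both were above all 8 vehicle libraries in every folic acid library.

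**Figure D3:**
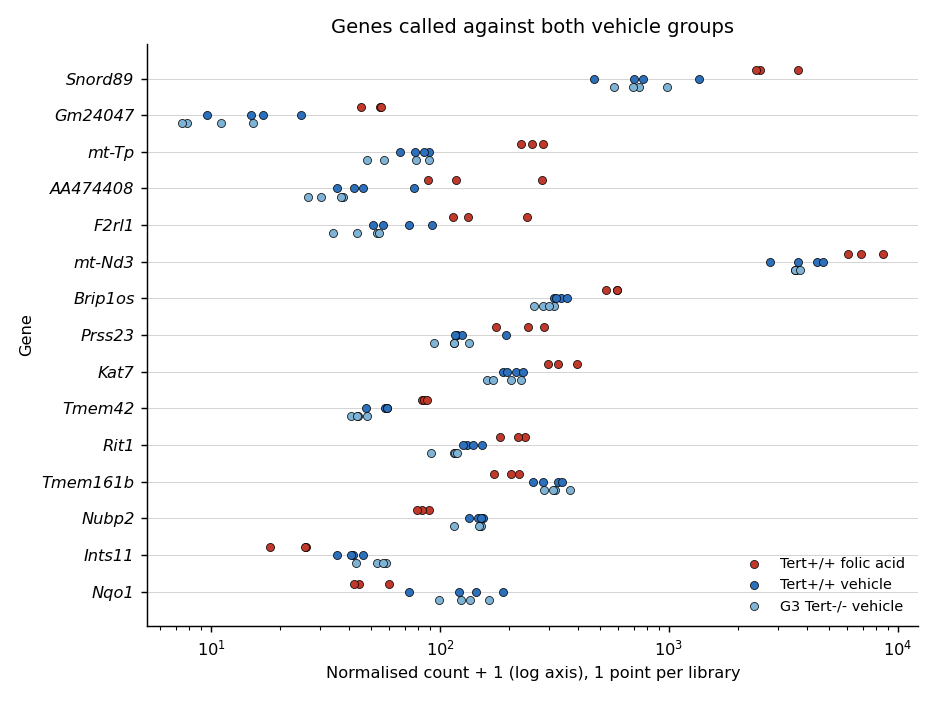
Normalised count + 1 on a log axis in each Tert+/+ folic acid (red), Tert+/+ vehicle (dark blue) and G3 Tert-/- vehicle (light blue) library for the 15 genes called against both vehicle groups, ordered by the log2 change. Red points lie outside the blue points in every row except Prss23, where V2 at 193 exceeds the lowest folic acid library at 175.

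Tubular injury genes were called at about the share of all genes. Of 19 tested, 1 was called, against 5.06 percent of all genes tested: Spp1 (osteopontin, secreted by injured tubules), and the median log2 change was 0.67 with all libraries and 0.07 without folic acid 1. Of the 19, edgeR called 1 and DESeq2 5. By library, the median difference from the vehicle mean was 1.55 in folic acid 1, -0.01 in folic acid 2 and 0.11 in folic acid 3. Folic acid 1 was the highest of the 7 libraries in 17 of the 19 genes (89.5 percent), against 26.1 percent of all genes tested. Havcr1 had 44.2, 4.799 and 0.953 normalised counts in the folic acid libraries, against 2.26, 0, 1.92 and 4.995 in vehicle (1.54, SE 0.97, limma adjusted p = 0.355). Lcn2, the iron-binding injury protein NGAL, had 358, 11.5 and 12.4 in folic acid, against 21.5, 1.896, 17.3 and 6.99 in vehicle (1.99, SE 1.01, limma adjusted p = 0.248). Folic acid 1 alone was high in both genes, and folic acid 2 and 3 lay within the vehicle range. Spp1 had 1906, 1009 and 1079 in folic acid, against 327, 624, 499.9 and 402 in vehicle (1.502, SE 0.31, limma adjusted p = 0.0157). Here all 3 folic acid libraries exceeded every vehicle library, but the G3 Tert-/- vehicle libraries, at 774, 1132, 1154 and 1306, overlapped them, and the change without folic acid 1 was 1.21 (limma adjusted p = 0.0734). Cdh6, a cadherin of the immature proximal tubule, had 368, 294 and 336 in folic acid, against 113, 244, 123 and 70.9 in vehicle, and missed the threshold (1.40, limma adjusted p = 0.0564).

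Folic acid 1 was the highest of the 7 libraries in 28 of 32 interstitial matrix genes. Of the 32, Col5a2, Fn1 and Sparc rose and none fell by limma (2.17 and 2.89 percent of all genes tested), while edgeR called 11 and DESeq2 16, and the median was 0.94, or 0.36 without folic acid 1 and 0.72 with the Y share. The library medians were 2.12, 0.44 and 0.39 in folic acid 1, 2 and 3. Col1a1, the main fibrillar collagen of scars, had 1769, 178 and 214 in folic acid, against 158, 183, 173 and 146 in vehicle (1.30, SE 0.59, limma adjusted p = 0.191), and Col3a1 had 1649.6, 140.1 and 140.1 in folic acid, against 149, 77.7, 177 and 124 in vehicle (1.33, SE 0.63, limma adjusted p = 0.218). In both, folic acid 1 was far above every other Tert+/+ library. Fn1, fibronectin, had 706, 109 and 104 in folic acid, against 36.2, 79.6, 37.4 and 40.96 in vehicle (2.10, SE 0.58, limma adjusted p = 0.0457). All folic acid libraries exceeded every vehicle library in Fn1, and without folic acid 1 the change was 1.199 (limma adjusted p = 0.215). Col5a2, which starts collagen fibrils, had 172, 120.0 and 127 in folic acid, against 44.1, 91.9, 65.2 and 56.9 in vehicle (1.13, SE 0.28, limma adjusted p = 0.0315). Its groups did not overlap, and its change with folic acid 1 left out was 0.97 (limma adjusted p = 0.129).

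The calls in the lists of basement membrane, proteases, mesenchymal cells and transition genes were all higher, where 2.17 percent of all genes tested were called higher. Of 18 basement membrane genes the laminin chain Lama2 and nidogen 1 (Nid1) rose, with a list median of 0.25. Lama2 had 162, 77.7 and 60.1 in folic acid, against 32.8, 43.6, 31.7 and 41.96 in vehicle (1.27, SE 0.28, limma adjusted p = 0.0211), without overlap. Of 15 matrix proteases and inhibitors, Adamts5, which cuts proteoglycans, and the plasminogen activator Plat rose (DESeq2 called 7). Plat had 73.7, 73.9 and 66.7 in folic acid, against 38.5, 50.2, 34.5 and 30.97 in vehicle (0.89, limma adjusted p = 0.0306), with all folic acid libraries alike, yet the G3 Tert-/- vehicle libraries had 70.2, 86.95, 107 and 64.1 and the change against them was -0.17. The protease inhibitor Timp1 had 80.5, 1.92 and 2.86 in folic acid, against 4.52, 0.948, 3.84 and 0.999 in vehicle, and again folic acid 1 alone was high. Of 15 genes of fibroblasts, pericytes and smooth muscle, the pericyte proteoglycan Cspg4 rose (DESeq2 called 5), with 242, 266 and 225 in folic acid, against 121, 187, 106 and 135 in vehicle (0.86, limma adjusted p = 0.0246). Acta2, the actin of myofibroblasts, had 324, 199.6 and 228 in folic acid, against 222, 230.3, 302 and 185 in vehicle (0.09, SE 0.19, limma adjusted p = 0.833), with overlapping groups. Of 20 genes of epithelial to mesenchymal transition and TGF-beta, which the study's title names, the transcription factor Zeb2 and the ligand Tgfb2 rose and none fell, with a median of 0.54 and of 0.13 with the Y share. Zeb2 rose by 0.83, all folic acid libraries being above all 8 vehicle libraries, and by 0.59 with the Y share. Tgfb2 rose by 1.65, but its change was -0.08 with the Y share and 0.28 against the G3 Tert-/- vehicle libraries, which overlapped folic acid. Without folic acid 1 neither was called (limma adjusted p = 0.187 for Zeb2 and 0.158 for Tgfb2). Vimentin (Vim) had 621, 271 and 267 in folic acid, against 227, 200.0, 226 and 175 in vehicle (0.78, limma adjusted p = 0.102), and the groups did not overlap.

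Leukocyte genes were also high in folic acid 1. None of 19 macrophage and myeloid genes was called by limma (5 at an unadjusted p under 0.05, 1 by edgeR and 6 by DESeq2), the list median was 0.93 with all libraries and 0.18 without folic acid 1, and folic acid 1 was the highest of the 7 libraries in all 19. The library medians were 2.64, 0.20 and 0.08. Lysozyme (Lyz2) had 945, 48.95 and 62.9 in folic acid, against 76.9, 34.1, 72.9 and 52.9 in vehicle. The complement component C1qb had 563, 67.2 and 83.9 in folic acid, against 59.9, 72.04, 45.1 and 47.95 in vehicle, and the monocyte receptor Ccr2 had 199.7, 15.4 and 18.1 in folic acid, against 23.8, 20.9, 29.7 and 18.98 in vehicle. Folic acid 1 was far above the rest in all 3 genes, while folic acid 2 and 3 lay within the vehicle range in Lyz2, at its upper end or above it in C1qb and below it in Ccr2. In whole tissue, more cells of a type and more RNA per cell cannot be told apart. Of 8 T, NK and B cell genes the T cell receptor chain Trbc2 rose (2.17 percent of all genes did), with 46.5, 25.9 and 39.1 in folic acid, against 18.1, 16.1, 14.4 and 11.99 in vehicle (1.22, SE 0.33, limma adjusted p = 0.0429). Jchain, of antibody-secreting cells, had 734, 31.7 and 38.1 in folic acid, against 42.98, 24.6, 71.00 and 21.98 in vehicle (1.41, limma adjusted p = 0.457). None of 15 complement and chemokine genes was called by limma (7 at an unadjusted p under 0.05, 4 by edgeR and 3 by DESeq2). Of 4 neutrophil genes none was called by limma (2 at an unadjusted p under 0.05, 0 by edgeR and 0 by DESeq2), and their sums were 72.6, 157 and 142 in folic acid and 198, 173, 195 and 233 in vehicle. Of 19 interferon-stimulated genes Mx2, Gbp3 and Gbp7 rose, against 2.17 percent of all genes tested, and the list median was 0.43, or 0.19 without folic acid 1. Gbp3, a guanylate-binding protein, had 255, 148 and 156 in folic acid, against 24.9, 97.6, 14.4 and 15.98 in Tert+/+ vehicle and 83.4, 99.7, 84.4 and 67.1 in G3 Tert-/- vehicle (2.67, SE 0.52, limma adjusted p = 0.0132), above all 8 vehicle libraries.

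**Figure D4:**
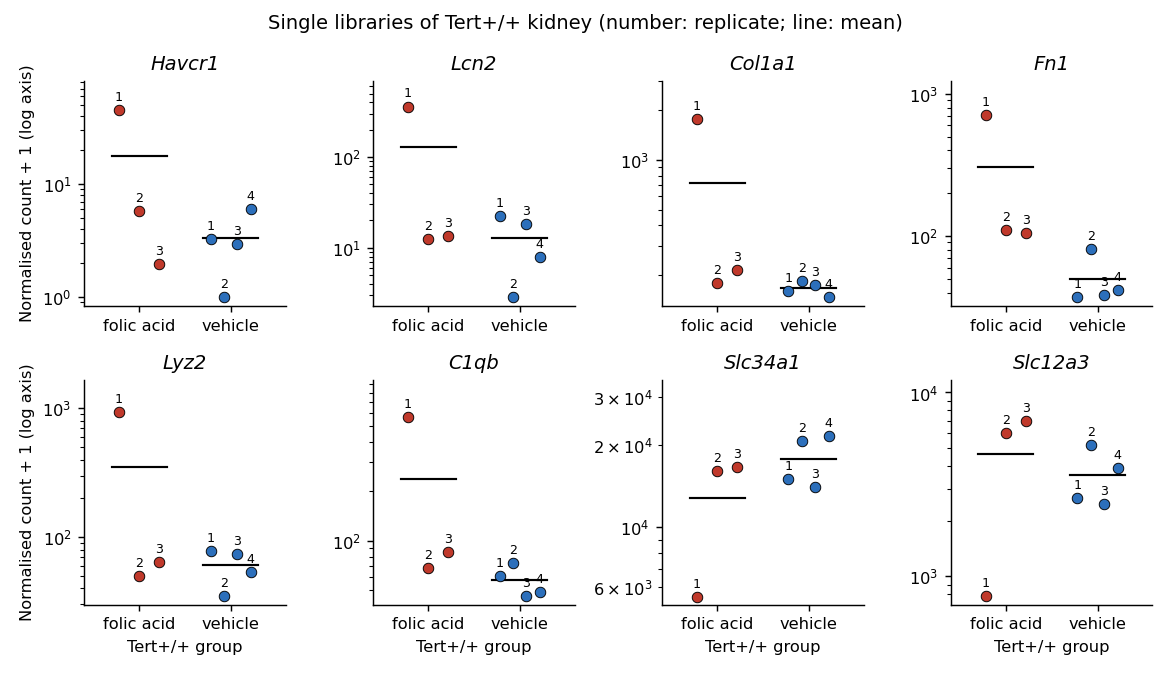
Normalised count + 1 on log axes for 8 genes in the Tert+/+ libraries, folic acid (red) left of vehicle (blue), with replicate numbers and lines at the group means. Folic acid 1 is far above the rest in Havcr1, Lcn2, Col1a1, Fn1, Lyz2 and C1qb and below it in Slc34a1 and Slc12a3, while folic acid 2 and 3 sit close together.

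As a list, proximal tubule transport genes were low in folic acid 1 alone. Of 24 proximal tubule transport genes, Slc22a6 (the organic anion transporter OAT1) and Amn (amnionless, a partner of the protein receptor cubilin) fell and Slc10a2 (a sodium bile acid transporter) rose, where 2.89 percent of all genes tested fell and 2.17 percent rose. The list median was -0.23, and by library -0.85, 0.10 and 0.05. Slc34a1, the main phosphate transporter, had 5544, 16057 and 16626 in folic acid, against 15049, 20718, 14001 and 21705 in vehicle (-0.62, SE 0.34, limma adjusted p = 0.288), folic acid 1 being the lowest of the 7. Slc22a6 had 749, 1062 and 1423 in folic acid, against 2904, 1932, 3279 and 4107 in vehicle (-1.500, SE 0.34, limma adjusted p = 0.0246), and the G3 Tert-/- vehicle libraries had 956, 1594, 1027 and 1293, overlapping folic acid. Slc10a2 had 958, 796 and 898 in folic acid, against 501, 653, 488 and 525 in vehicle (0.71, SE 0.15, limma adjusted p = 0.0165). Every folic acid library was above all 8 vehicle libraries, which reached 653. Of 17 proximal tubule enzymes, Hao2, a peroxisomal hydroxyacid oxidase, rose, and Agxt2 and Ggt1, the gamma-glutamyltransferase of the brush border, fell. Ggt1 had 2366, 3861 and 3524 in folic acid, against 7480.0, 5654, 5359 and 6874 in vehicle (-0.98, limma adjusted p = 0.0344), and 3043, 2968, 2759.9 and 2953 in G3 Tert-/- vehicle.

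Further along the nephron, 2 of 17 genes of the thick limb and distal tubule rose and none fell, against 2.17 and 2.89 percent of all genes tested. Umod, uromodulin of the thick ascending limb, had 19208, 12325 and 13730 in folic acid, against 9371, 6649, 8922 and 8193 in vehicle (0.85, SE 0.21, limma adjusted p = 0.033), all folic acid libraries being above all 8 vehicle libraries, the highest of which was 11466 in a G3 Tert-/- library. Egf, epidermal growth factor made in the distal tubule, had 3572, 5485 and 5461 in folic acid, against 2705, 3977, 2729.5 and 2980.1 in vehicle (0.63, limma adjusted p = 0.0485), with folic acid 1 the lowest of its group and within the vehicle range. It was called without folic acid 1 (0.84, limma adjusted p = 0.0295). The distal tubule salt transporter Slc12a3, the target of thiazides, had 781, 6054 and 7014 in folic acid, against 2675, 5157, 2464 and 3861 in vehicle (-0.08, limma adjusted p = 0.951). Folic acid 1 was the lowest library and folic acid 2 and 3 the highest, so that the mean hid opposite deviations. Calbindin (Calb1), a calcium-binding protein of the same segment, had 352, 1619 and 1624 in folic acid, against 898, 1925, 1021 and 1342 in vehicle. The sodium-calcium exchanger Slc8a1 had 354, 1933 and 1907 in folic acid, against 1027, 2478, 1095 and 1603 in vehicle. In both genes folic acid 1 was the lowest of the 7 libraries, and folic acid 2 and 3 lay within the vehicle range. Klotho (Kl), the co-receptor for FGF23, had 168, 461 and 458 in folic acid, against 421, 614, 610.2 and 708 in vehicle (-0.81, limma adjusted p = 0.107). None of 17 collecting duct genes was called by limma (1 at an unadjusted p under 0.05, 0 by edgeR and 0 by DESeq2), with a median of -0.05.

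In the glomerulus and vessels, the cell cycle inhibitor Cdkn1c of podocytes rose. Cdkn1c had 414, 227 and 232 in folic acid, against 146, 173, 160.2 and 159 in vehicle (0.81, limma adjusted p = 0.0384), without overlap in Tert+/+, and 248, 281, 251 and 249.6 in G3 Tert-/- vehicle. Nephrin (Nphs1), of the slit diaphragm between podocytes, had 12.5, 90.2 and 94.4 in folic acid, against 48.6, 129, 41.3 and 58.9 in vehicle. Folic acid 1 was the lowest of the 7 libraries. Of 17 endothelial genes Eng, Cdh5 and Cd34 rose and none fell, against 2.17 and 2.89 percent of all genes tested. Eng, endoglin, a co-receptor for TGF-beta family ligands, had 264, 245 and 221 in folic acid, against 140.2, 120.4, 146 and 129.9 in vehicle (0.86, SE 0.16, limma adjusted p = 0.0131), and 163, 104, 159 and 131 in G3 Tert-/- vehicle. All folic acid libraries were above all 8 vehicle libraries, and against the G3 Tert-/- group alone its limma adjusted p was 0.0531. Cd34 had 759, 398 and 393 in folic acid, and the G3 Tert-/- vehicle libraries, at 309, 181, 444 and 451, overlapped them. Its change was 1.94 against Tert+/+ vehicle, 0.59 against G3 Tert-/- vehicle (limma adjusted p = 0.503) and 0.28 with the Y share. The median of the endothelial list was 0.27, against 0.01 over all genes tested. It was 0.02 against the G3 Tert-/- vehicle libraries and 0.19 with the Y share.

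**Figure D5:**
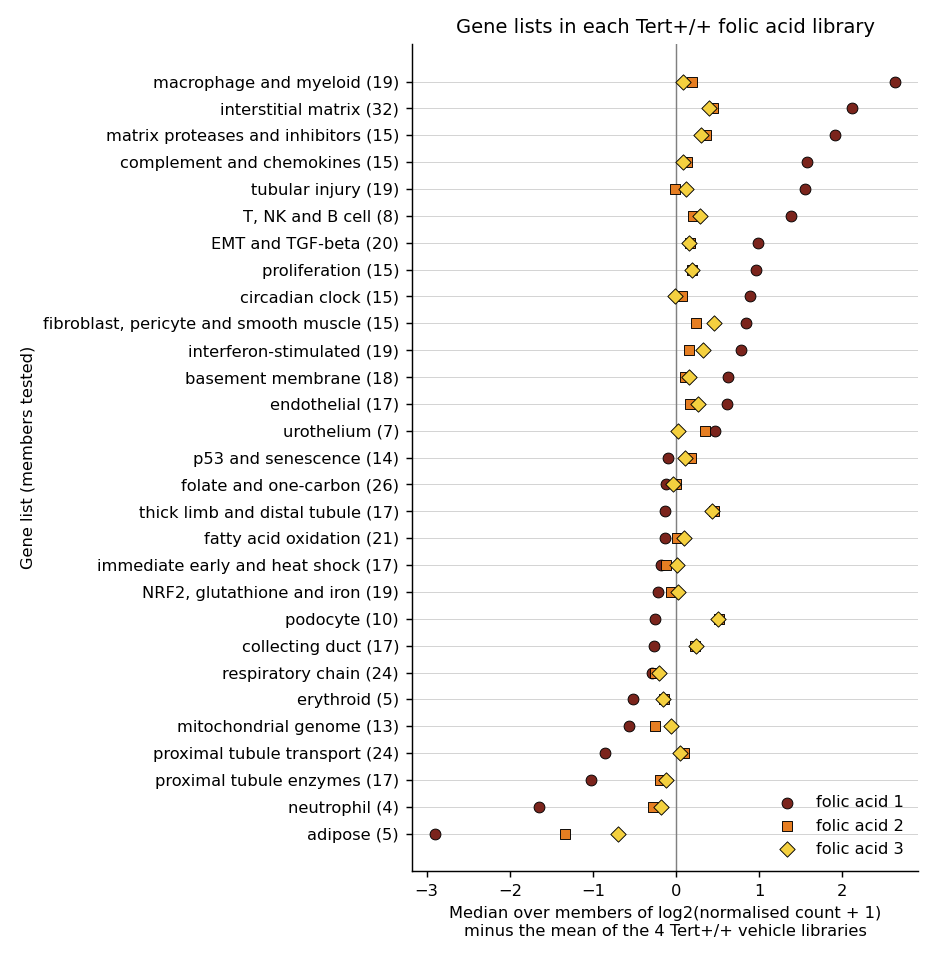
Median over the tested members of gene lists (number in brackets; the male, female, Y-linked and adrenal lists are not drawn) of log2(normalised count + 1) minus the mean of the 4 Tert+/+ vehicle libraries, for each folic acid library. Folic acid 1 stands at 2.64 for macrophage and 2.12 for interstitial matrix genes and at -0.85 for proximal tubule transport, while folic acid 2 and 3 stay between -0.27 and 0.52 in the lists drawn other than adipose.

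Of 26 folate and one-carbon genes 2 were called, against 5.06 percent of all genes tested. Shmt1 rose and Shmt2 fell, the cytosolic and mitochondrial serine hydroxymethyltransferases that pass a carbon unit from serine to folate, and the median was -0.07. Shmt1 had 216, 294 and 295 in folic acid, against 165, 191, 156 and 144 in vehicle (0.70, SE 0.18, limma adjusted p = 0.0393), and Shmt2 had 151, 302 and 276 in folic acid, against 470.5, 531, 602 and 632 in vehicle (-1.25, SE 0.25, limma adjusted p = 0.0152). Neither overlapped within Tert+/+, but the G3 Tert-/- vehicle libraries had 225, 308, 266 and 282 for Shmt1 and 303, 525, 353 and 421 for Shmt2, so that folic acid overlapped them in Shmt1 and lay just below their lowest library in Shmt2, 302 in folic acid 2 against 303. Folr1, the folate receptor of the proximal tubule, had 874, 731 and 766 in folic acid, against 642, 693, 591 and 848 in vehicle (0.20, SE 0.29, limma adjusted p = 0.735).

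Energy metabolism was described by 2 lists. Of 24 nuclear genes of the respiratory chain 11 had all folic acid libraries below all Tert+/+ vehicle libraries and 1 above, against 10.6 and 9.31 percent of all genes tested, and 1 was called, against 5.06 percent: Atp5c1, a subunit of ATP synthase, with 1479, 1718 and 1709 in folic acid, against 2314, 1934, 2263 and 2484 in vehicle (-0.46, SE 0.13, limma adjusted p = 0.048). Of the 24 genes, 9 had an unadjusted limma p under 0.05, while edgeR called 0 and DESeq2 6. The list median was -0.24, -0.21 without folic acid 1, -0.33 against the G3 Tert-/- vehicle libraries and -0.05 with the Y share. Over 21 fatty acid oxidation genes the list median was 0.07. Of 15 clock genes 1 was called, Nr1d1, the repressor REV-ERB alpha, which rose, with 503, 238 and 242 in folic acid, against 63.3, 158, 82.5 and 98.9 in Tert+/+ vehicle and 111, 99.7, 167 and 177 in G3 Tert-/- vehicle (1.68, SE 0.31, limma adjusted p = 0.0107). Its folic acid libraries were above all 8 vehicle libraries, and without folic acid 1 the change was 1.33 (limma adjusted p = 0.0477). The sources used here do not state the hour at which each kidney was taken, and its part in Nr1d1 was not tested.

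Of 15 proliferation genes 1 was called, against 5.06 percent of all genes tested. The list median was 0.43, or 0.24 without folic acid 1, which was the highest of the 7 libraries in 9 of the 15. The called gene, Nusap1, a spindle protein, fell, with 18.2, 14.4 and 16.2 in folic acid, against 37.3, 42.7, 36.5 and 54.9 in vehicle (-1.33, limma adjusted p = 0.026). But the G3 Tert-/- vehicle libraries had 18.3, 13.7, 16.2 and 24.1 of Nusap1, overlapping folic acid. Its change was -0.12 against them and -0.60 with the Y share. None of 14 p53 and senescence genes was called by limma (2 at an unadjusted p under 0.05, 0 by edgeR and 0 by DESeq2), and the cell cycle inhibitor Cdkn1a had 251, 275 and 325 in folic acid, against 234, 198, 274 and 269.7 in vehicle (0.22, SE 0.31, limma adjusted p = 0.725). None of 17 immediate early and heat shock genes was called by limma (2 at an unadjusted p under 0.05, 0 by edgeR and 0 by DESeq2). Tert RNA itself was near the detection limit, with 13.6, 6.72 and 6.67 in folic acid, against 22.6, 7.58, 15.4 and 2.997 in vehicle (-0.17, limma adjusted p = 0.9), where 3 reads are worth 2.84 to 3.40 normalised counts.

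Marker genes of other tissues and cells were summed in each library, and their part in the results was not tested. The 5 adipose genes tested summed to 264, 458 and 496 in folic acid, against 1063, 949, 958 and 1314 in vehicle. Of 8 adrenal genes 2 were tested, summing to 1946, 657 and 908, against 202, 354, 296 and 185, nearly all of it Akr1c18, a progesterone-metabolising enzyme, while Mc2r was 0 in all 7 libraries. The 5 erythroid genes summed to 17463, 23002 and 22515, against 35061, 16305, 34631 and 27580, and the 7 urothelial genes to 201, 149.7 and 132, against 572, 43.6, 493 and 28.97. No gene of these 4 lists was called by limma (3 at an unadjusted p under 0.05, 0 by edgeR and 0 by DESeq2 in adipose; 1 at an unadjusted p under 0.05, 0 by edgeR and 0 by DESeq2 in adrenal; 0 at an unadjusted p under 0.05, 0 by edgeR and 0 by DESeq2 in erythroid; 0 at an unadjusted p under 0.05, 0 by edgeR and 0 by DESeq2 in urothelium), and the adipose and adrenal sums did not overlap between the groups.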

How the data were processed

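RNA was measured in 15 mouse kidney libraries, of which 7 enter the comparison and 4 more serve as further controls; all 15 share 1 estimate of spread. Per the labels' protocols, libraries were made from 300 ng of total RNA with the QuantSeq 3' kit, a stranded kit read from the 3' end. The submitters' processing notes name FastQC 0.11.7, TopHat2 2.0.10, Bowtie 1.0.0, SAMtools 0.1.19, HTSeq 0.6.1, DESeq2 and GRCm38. The deposited signal values are gene counts scaled by the authors with a size factor for each library: 100 percent of values became whole reads within 0.001. Because reads cover 3' ends, levels are not corrected for length. The values depend on the authors' size factors, so TMM and quantile scaling were tried.

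Genes that reached 10 normalised counts in 3 or more libraries were fitted with limma 3.58.1 (R 4.3.3) on log2(normalised count + 1), with 4 group means and a variance trend, and p-values were adjusted by Benjamini-Hochberg over 14651 genes, with a call at 0.05. On the recovered reads edgeR 4.0.16 called 372 genes higher and 384 lower, and DESeq2 1.42.0 called 617 and 640. The script was tested on simulated data. The table held columns of no other series.

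Named genes are the 12 called genes with the largest change in each direction and a mean of at least 20 (without Y-linked genes, Xist and predicted models), the 2 members of each list with the smallest p, a fixed panel, the 15 genes called against both vehicle groups, and 17 genes chosen after their values were seen. The members and lists were chosen with earlier results of these data known. Results for some named genes are not reported here.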

Additional observations from a re-analysis of the deposited data

Results flagged for a closer look

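Among the 137 genes named here, 1 Tert+/+ vehicle library stood apart from the other 3 vehicle libraries by Dixon's test in 21 genes and in the sum of the 4 Y-linked genes, and in each case it was vehicle 2. By chance this test marks about 1 in 20 independent groups. The named genes were chosen in part by their values in these libraries and include sex-linked genes, so their count cannot be set against that rate. No folic acid group was tested, since 3 libraries are too few. Values are normalised counts in vehicle 2 against the range of vehicle 1, 3 and 4.

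Vehicle 2 was the highest in 16 genes. Of genes that rose with folic acid, it had 293 of Slc7a12 against 3.84 to 20.98, 1597 of Prlr against 49.8 to 104 and 547 of Cyp4a14 against 36.2 to 66.9. Rdh16f2 had 528 against 75.8 to 125, Cbr1 1289 against 228 to 243, and Slc17a2, a phosphate and anion transporter, 27.5 against 0 to 3.84. Gbp3 had 97.6 against 14.4 to 24.9, Ceacam2 159 against 50.95 to 64.3 and Gsta4 238 against 63.3 to 74.8. The growth factor Tgfb2 had 78.7 against 21.98 to 30.5, Fn1 79.6 against 36.2 to 40.96 and Prss23 193 against 115 to 124. Mme had 1417 against 844 to 891, Npnt 2407 against 887 to 1085 and Socs2 551 against 152 to 196. Each of these values lay between the other vehicle libraries and the lowest folic acid library, except those of Prss23 and Gsta4, which were above that library. Xist had 3026 against 42.2 to 84.9.

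Vehicle 2 was the lowest in the other genes. It had 897 of Acsm3 against 2506 to 2742, 999 of Slc7a13 against 4324 to 4484 and 46.4 of Tmem42 against 56.5 to 57.9. Of Y-linked RNA it had 70.1 of Uty against 210.3 to 224, 149.8 of Ddx3y against 413 to 429, and a sum of 283 against 816 to 867. In Acsm3, Slc7a13 and both Y-linked genes the folic acid libraries were lower still, while in Tmem42 they were higher than all vehicle libraries. Whether vehicle 2 held tissue or RNA of more than 1 animal was not tested.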

How the results depend on the processing

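The counts of 318 genes called higher and 423 lower moved with how sex entered the fit. They were 191 and 179 with the labelled sex, 0 and 1 with the Y share, 0 and 2 with the Y share when the 2 libraries that hold both kinds of sex-linked RNA were left out, and 18 and 4 against the G3 Tert-/- vehicle libraries. They were 142 and 278 with the 7 Tert+/+ libraries alone, 984 and 1103 with library weights, 149 and 187 without a variance trend, and 617 and 640 by DESeq2. Chosen after seeing the data, edgeR with the Y share gave 0 and 1, and the Y share without folic acid 1 gave 0 and 0. Leaving out each library in turn gave 35 to 589 higher and 64 to 720 lower. With edgeR, other low-value filters, pseudocounts of 0.5 and 5, and TMM or quantile scaling the counts lay between 276 and 372 and between 358 and 457. Without folic acid 1, 31 of 83 named called genes were still called. Of these 83, library weights and both pseudocounts kept all as called and in the same direction.

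Some directions reversed. The G3 Tert-/- vehicle group gave Cyp4a14 -1.16, Slco1a1 1.27, Acsm3 0.24, Slc7a13 1.12, Cyp2j13 1.02, Pzp 0.25, Ugt2b37 0.86, Cyp7b1 0.27, Mpped1 0.32, Ugt2b38 0.13, Plat -0.17, Ggt1 0.12, Shmt1 -0.017, Slc22a30 0.38, Uty 0.84, Kdm5d 0.76 and Ddx3y 2.01. The Y share gave Prlr -0.62, Slc17a2 -0.73, Cyp4a14 -0.82, Cbr1 -0.52, Rdh16f2 -0.36, Mpped1 0.31, Tgfb2 -0.078 and Gsta4 -0.25, and without folic acid 1 Slc7a12 -0.22, Abcc3 -0.40, Prlr -0.54, Slc17a2 -0.80, Cyp4a14 -0.67, Cbr1 -0.36, Rdh16f2 -0.30, Tgfb2 -0.43 and Cd34 -0.062. The Y share without the 2 mixed libraries gave Slc17a2 -0.50, Cyp4a14 -0.30, Cbr1 -0.40, Rdh16f2 -0.18, Slco1a1 2.38, Acsm3 2.19, Slc7a13 2.31, Cyp2j13 1.30, Ugt2b37 1.30, Cyp7b1 0.78, Cyp4a12a 2.18, Cyp4b1 1.30, Mpped1 0.089, Ugt2b38 0.95, Slc22a6 0.084, Ggt1 0.37, Nusap1 0.15, Shmt1 -0.026, Gsta4 -0.36, Odc1 0.027, Slc22a30 0.28, Uty 0.37, Cyp2e1 0.39, Xist -5.14 and Ddx3y 1.55, and edgeR with the Y share Slc7a12 -0.27, Prlr -0.65, Slc17a2 -1.43, Cyp4a14 -0.78, Cbr1 -0.50, Rdh16f2 -0.36 and Gsta4 -0.12. The cause was not tested. Depth limits low genes, since 3 reads are worth 2.84 to 3.40 normalised counts here. No paired analysis was possible because the labels number no replicates, the numbers used here being in accession order.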

Other observations

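Other called genes also had every folic acid library outside all 8 vehicle libraries. Leaving aside predicted models and the genes chosen by the rules, 147 had a mean of at least 100 normalised counts in the 7 Tert+/+ libraries. The 7 described here were chosen after their values were seen. Among those that rose, Npnt (nephronectin, a basement membrane ligand of integrins in the kidney) had 3909.5, 3404 and 3428 normalised counts in folic acid, against 1085, 2407, 887 and 927 in Tert+/+ vehicle and 1450.2, 1221, 1299 and 1169.6 in G3 Tert-/- vehicle (1.56, SE 0.30, limma adjusted p = 0.0132). Pigt, a subunit of the enzyme that attaches GPI anchors to proteins, had 205, 224 and 262 in folic acid, against 111, 91.00, 69.1 and 116 in Tert+/+ vehicle and 99.7, 107, 111 and 111 in G3 Tert-/- vehicle (1.26, SE 0.22, limma adjusted p = 0.00895). Its change was 1.13 with the Y share, nearly the same size, and that of Npnt was 0.27. Socs2, a feedback inhibitor of growth hormone signalling, had 988, 1067 and 1214 in folic acid, against 166, 551, 152 and 196 in Tert+/+ vehicle and 457, 694, 782 and 808 in G3 Tert-/- vehicle (2.24, SE 0.46, limma adjusted p = 0.0157). Socs2 was thus higher in the G3 Tert-/- vehicle libraries than in most Tert+/+ vehicle libraries, and highest in folic acid.

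At the brush border, Slc6a18, a transporter of neutral amino acids, had 3778, 3652 and 3588 in folic acid, against 1895, 2767, 1599 and 1885 in Tert+/+ vehicle and 2204, 2285, 2736 and 2646 in G3 Tert-/- vehicle (0.88, SE 0.16, limma adjusted p = 0.0119). The peptidase Mme (neprilysin) had 1808, 1947 and 1863 in folic acid, against 848, 1417, 844 and 891 in Tert+/+ vehicle and 1337, 1419, 1624 and 1599.6 in G3 Tert-/- vehicle (0.94, SE 0.19, limma adjusted p = 0.0157). In both genes folic acid 1 was level with folic acid 2 and 3, unlike in most of the transport list. Of genes that fell, Nat8, an N-acetyltransferase of mercapturate synthesis, had 351, 329 and 275 in folic acid, against 1901, 1090.0, 1757 and 2246 in Tert+/+ vehicle and 406, 579, 447 and 640.4 in G3 Tert-/- vehicle (-2.41, SE 0.36, limma adjusted p = 0.00811), and close copies of this gene may share its reads. Ephx2, soluble epoxide hydrolase, had 199.7, 362 and 303 in folic acid, against 1215, 765, 1193 and 1377 in Tert+/+ vehicle and 457, 658, 388 and 401 in G3 Tert-/- vehicle (-1.99, SE 0.32, limma adjusted p = 0.00811). Without folic acid 1 Nat8, Ephx2, Slc6a18, Mme, Socs2 and Pigt were called by limma and Npnt was not (adjusted p = 0.0509), and none of the 7 was called by limma against the G3 Tert-/- vehicle libraries alone, where Pigt had an adjusted p of 0.0531 and Npnt of 0.06.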
